A study of Mus musculus with 10 samples.

Results

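Drug-metabolising enzymes of 5 superfamilies were followed in organoids grown from mouse duodenum: the cytochromes P450 of families Cyp1 to Cyp4, the UDP-glucuronosyltransferases Ugt1 and Ugt2, the glutathione transferases, the sulfotransferases and the carboxylesterases Ces1 and Ces2. Within these families a gene was taken by its symbol alone, with no measured value in the rule, and 156 of the 24016 gene symbols in the table belonged. The assay was global run-on sequencing (GRO-seq), in which nuclei are isolated and RNA polymerases already on a gene label and lengthen their transcripts, so that it reads transcription as it happens and not the stored RNA. ENRI, the enterocyte differentiation medium of the labels, held EGF, Noggin, R-spondin and the inhibitor of Wnt secretion IWP-2, and lacked Wnt3A and CHIR-99021. WENRC, their stem cell medium, held EGF, Noggin, R-spondin, Wnt3A and the Wnt pathway agonist CHIR-99021. Each medium had 2 GRO-seq libraries and 1 ChIP-seq library for H3K27me3, the histone mark of Polycomb repressive complex 2. The labels call the ENRI cells enterocytes and the WENRC cells intestinal stem cells, and number the GRO-seq mice 1 and 2 in both media. The authors' file header numbers the libraries of each medium as batch 1 and batch 2, and recovered reads over all transcripts were 29128101 and 15787828 in ENRI against 25839484 and 9245915 in WENRC.

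These families carry a fat-soluble foreign compound or hormone through oxidation or hydrolysis to a water-soluble conjugate that transporters can export. Cytochromes P450 insert oxygen with electrons passed on by P450 oxidoreductase, and carboxylesterases split esters and amides. The transferases then attach glucuronic acid, glutathione or sulfate. In the small intestine the pathway sits mainly in the absorptive enterocytes of the villus, where it meets swallowed drugs before the liver does. Most of the genes lie in tandem arrays made by repeated duplication, and the receptors PXR (Nr1i2), CAR (Nr1i3) and AhR control many of them.

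Most members that were transcribed at all were higher in ENRI. Both ENRI libraries lay above both WENRC libraries for 93 of 156 members, against 15.1% of all genes. The reverse held for 9 members, against 33.4% of all genes. The 156 members together had 318 and 592 RPKM in ENRI against 150 and 107 RPKM in WENRC (reads per kb of transcript and per 1M reads, with the overlapping Ugt1 transcripts each counted), while the sum over all genes was 48127 and 46282 RPKM in ENRI against 52036 and 49324 RPKM in WENRC. At a mean of 1 RPKM or more stood 68 members in ENRI and 40 in WENRC, and at 10 RPKM or more 14 in ENRI and 0 in WENRC. In bulk libraries of this kind, fewer cells of a type and less nascent RNA per cell cannot be told apart.

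A filter of at least 0.5 RPKM in at least 2 libraries kept 77 members and left 79 out. Of those kept, 22 passed through the ENRI pair alone and 1, Cyp2w1, through the WENRC pair alone, so that counts over the 77 lean towards ENRI by construction. Cyp2d34, Ces1f, Ugt2b5 and Gstk1, given below with limma values, are among the 22. For them and Cyp2w1 the added 0.5 RPKM narrows the spread of the low pair, so their limma values are not independent of the filter. Among them 69 of 77 were higher in ENRI, with a median difference in log2(RPKM + 0.5) of 1.32, against -0.21 over all 11602 genes tested, a median against which each difference below is to be read. Over all 156 members without a filter, 133 were above 0 and the median was 0.43, against -0.02 over all genes. By limma's moderated test with Benjamini-Hochberg adjustment over all genes, 0 members passed an adjusted p of 0.05 in either direction (7 of all genes, 0.0603%, did so higher in ENRI and 10, 0.0862%, lower), and the smallest adjusted p of a member was 0.0518. At an unadjusted p under 0.05 limma had 55 members higher, against 12.0% of all genes tested, and 3 lower, against 26.9%. Other tests on the recovered reads called more of them. edgeR's quasi-likelihood test had 37 members higher (5.60% of all genes tested) and 1 lower (2.84%), and DESeq2 had 59 higher (14.7%) and 2 lower (8.89%). In the authors' deposited table, which used edgeR with batch as a term, the FDR was under 0.05 for 78 members higher (5.65% of all genes) and 2 lower (3.06%). With 1 library left out, the median log2 difference of the tested members was 1.80 without ENRI batch 1 and 0.96 without ENRI batch 2. It was 1.49 without WENRC batch 1 and 1.19 without WENRC batch 2. Members below are therefore described by their values in each library, and none of the limma values given with them passed.

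**Figure D1:**
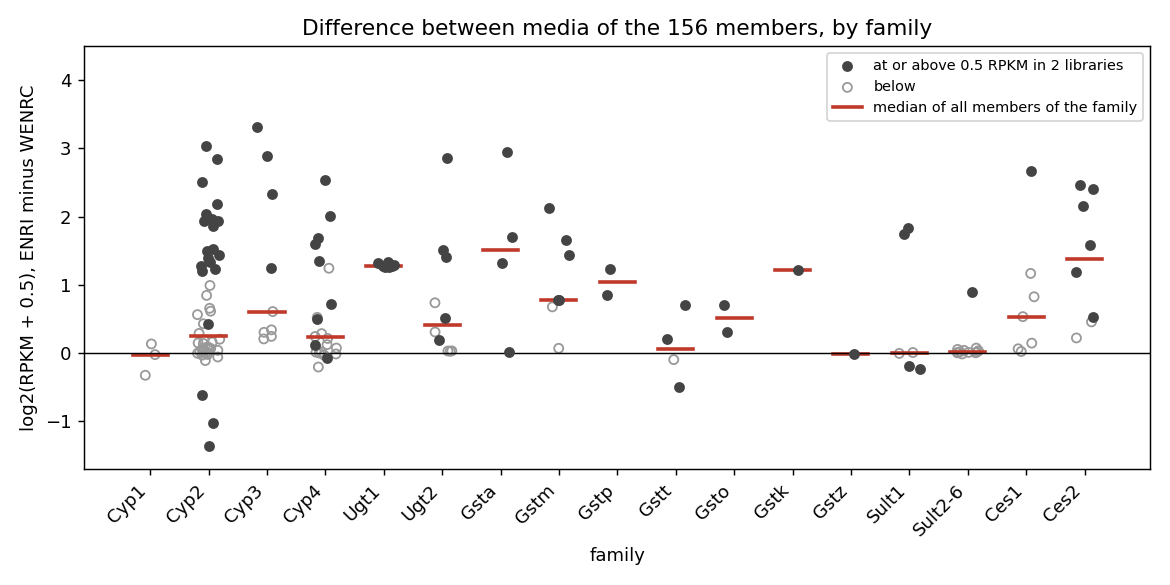
Difference in log2(RPKM + 0.5), ENRI minus WENRC, for each of the 156 members (points, jittered sideways) by family, filled where the member had at least 0.5 RPKM in 2 libraries. The red bars are medians over all members of a family; the Gsta, Gstp, Gstk, Ugt1 and Ces2 medians lie above 1, while the 12 Sult genes outside Sult1 have a median near 0.

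Markers of the enterocyte were higher in ENRI too. Of the enterocyte markers listed, 9 of 9 tested were higher in ENRI, and the summed level of all 10 was 569 and 821 RPKM in ENRI against 43.4 and 18.4 RPKM in WENRC. The 9 stem cell markers, Lgr5 and Axin2 among them, summed to 9.62 and 4.77 RPKM in ENRI against 29.5 and 37.2 RPKM in WENRC. The 6 liver markers summed to 0.788 and 2.61 RPKM in ENRI against 4.20 and 4.04 RPKM in WENRC, most of it from the urea cycle enzyme Cps1 with 0.672 and 2.14 RPKM in ENRI against 3.93 and 3.52 RPKM in WENRC. Apoh and Serpina1a were under 0.1 RPKM in all 4 libraries, and Alb had 0 and 0.133 RPKM in ENRI against 0 and 0.00687 RPKM in WENRC. The endothelial markers Pecam1, Cdh5 and Kdr and 4 of 5 immune markers, all but Cd68, were under 0.1 RPKM in every library. Cd68 had 5.25 and 5.47 RPKM in ENRI against 13.1 and 16.5 RPKM in WENRC. The 6 goblet cell markers summed to 44.8 and 28.5 RPKM in ENRI against 7.88 and 5.14 RPKM in WENRC, and 5 of 6 were higher in ENRI. The 5 Paneth cell markers summed to 14.7 and 38.7 RPKM in ENRI against 22.2 and 40.0 RPKM in WENRC, the 6 enteroendocrine markers to 5.10 and 11.5 RPKM in ENRI against 3.67 and 6.62 RPKM in WENRC, and the 6 mesenchymal markers to 0.929 and 0.846 RPKM in ENRI against 1.50 and 1.02 RPKM in WENRC. The part of enterocyte and other cell content in the differences of the enzyme genes was not tested.

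The Cyp3a genes gave some of the largest differences. Cyp3a13, a form known from mouse intestine, had 18.6 and 22.7 RPKM in ENRI, against 2.52 and 2.19 RPKM in WENRC. The 2 media were separated by far more than the spread within either, with means of 20.7 ± 2.93 in ENRI and 2.35 ± 0.238 in WENRC (SD, n = 2 each) and a log2 difference of 2.89 ± 0.22 (SE, limma adjusted p = 0.0518). Cyp3a11, the main drug-oxidising Cyp3a of mouse liver and a standard PXR target, had 7.05 and 22.0 RPKM in ENRI against 1.02 and 0.634 RPKM in WENRC. Its ENRI libraries lay far apart but above both WENRC libraries, and the log2 difference was 3.31 ± 0.58 (limma adjusted p = 0.056), the largest of any member tested. Cyp3a25 had 6.87 and 12.1 RPKM in ENRI against 2.03 and 0.961 RPKM in WENRC. Cyp3a59 stood at a lower level, with 0.869 and 1.46 RPKM in ENRI against 0.256 and 0.127 RPKM in WENRC. Cyp3a13 stands alone on chromosome 5, whereas the other 8 members of the family form 1 array farther along it. Within that array the genes from Cyp3a57 to Cyp3a44 stayed under 0.6 RPKM in every library, and the higher signal began at Cyp3a11 and Cyp3a25. Cyp3a41a is listed with 2 genomic copies in the table, so how its reads divide between them is not known.

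Sequences around the starts of 8 members are printed to set side by side some genes with large differences, neighbours in the Cyp2c array that went opposite ways, and Cyp1b1, whose start carried H3K27me3. They come from RefSeq (build GRCm38.p6, whereas the measurements use mm9), run 5′ to 3′ in the direction of the gene from 250 bases before the start to 50 after it, and carry in capitals the letters searched: GCGTG (the core bound by AhR), TGACNNNGC (antioxidant response core), AGGTCA (core bound by many nuclear receptors), GTTAAT (part of the HNF1 motif) and TATAAA.
Cyp3a13: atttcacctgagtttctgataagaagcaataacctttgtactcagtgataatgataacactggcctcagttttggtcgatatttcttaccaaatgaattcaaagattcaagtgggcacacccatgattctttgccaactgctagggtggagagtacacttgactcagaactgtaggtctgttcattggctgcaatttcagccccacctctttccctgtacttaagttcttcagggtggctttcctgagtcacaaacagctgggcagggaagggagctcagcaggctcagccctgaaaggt
Cyp3a11: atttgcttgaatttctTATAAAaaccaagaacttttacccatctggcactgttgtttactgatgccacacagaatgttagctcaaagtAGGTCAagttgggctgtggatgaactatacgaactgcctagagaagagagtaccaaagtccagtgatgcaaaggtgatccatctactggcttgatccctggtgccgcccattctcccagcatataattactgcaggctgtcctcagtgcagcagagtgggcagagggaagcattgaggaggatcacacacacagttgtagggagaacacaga
Cyp3a25: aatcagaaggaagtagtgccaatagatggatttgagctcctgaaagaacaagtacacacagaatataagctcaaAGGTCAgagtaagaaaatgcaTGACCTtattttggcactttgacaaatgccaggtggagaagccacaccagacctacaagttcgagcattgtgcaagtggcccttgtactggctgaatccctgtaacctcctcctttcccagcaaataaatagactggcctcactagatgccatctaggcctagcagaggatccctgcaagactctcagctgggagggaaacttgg
Cyp2c55: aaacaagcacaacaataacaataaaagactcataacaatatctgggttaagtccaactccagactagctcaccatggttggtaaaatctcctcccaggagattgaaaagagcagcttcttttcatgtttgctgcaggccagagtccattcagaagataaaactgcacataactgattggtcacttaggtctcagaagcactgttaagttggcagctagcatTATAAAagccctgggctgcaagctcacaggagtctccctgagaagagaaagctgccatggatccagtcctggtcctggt
Cyp2c65: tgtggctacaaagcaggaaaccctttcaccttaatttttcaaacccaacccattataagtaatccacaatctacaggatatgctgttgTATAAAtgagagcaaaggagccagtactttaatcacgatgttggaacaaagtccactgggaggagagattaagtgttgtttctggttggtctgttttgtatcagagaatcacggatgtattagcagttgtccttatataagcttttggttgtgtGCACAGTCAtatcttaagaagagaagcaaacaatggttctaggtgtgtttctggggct
Cyp2c29: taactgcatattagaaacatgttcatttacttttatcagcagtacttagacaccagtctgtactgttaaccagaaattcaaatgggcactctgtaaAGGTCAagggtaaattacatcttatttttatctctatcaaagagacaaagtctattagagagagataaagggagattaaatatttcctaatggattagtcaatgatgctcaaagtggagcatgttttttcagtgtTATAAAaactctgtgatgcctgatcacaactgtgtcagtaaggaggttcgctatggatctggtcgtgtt
Gsta1: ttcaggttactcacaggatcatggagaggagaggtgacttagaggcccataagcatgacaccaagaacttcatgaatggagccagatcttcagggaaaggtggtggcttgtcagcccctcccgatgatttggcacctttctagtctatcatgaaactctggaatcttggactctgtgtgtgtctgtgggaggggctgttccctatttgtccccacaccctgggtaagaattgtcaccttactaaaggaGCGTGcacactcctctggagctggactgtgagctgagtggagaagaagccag
Cyp1b1: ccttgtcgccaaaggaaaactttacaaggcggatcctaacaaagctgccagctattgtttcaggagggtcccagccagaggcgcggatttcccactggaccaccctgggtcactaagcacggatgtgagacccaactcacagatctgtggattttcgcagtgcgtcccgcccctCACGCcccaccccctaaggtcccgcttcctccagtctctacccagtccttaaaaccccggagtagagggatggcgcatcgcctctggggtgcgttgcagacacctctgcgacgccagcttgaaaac

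Cyp3a13 lies at chr5:137921570-137921869 (minus strand), Cyp3a11 at chr5:145879805-145880104 (minus), Cyp3a25 at chr5:146009569-146009868 (minus), Cyp2c55 at chr19:39006769-39007068 (plus), Cyp2c65 at chr19:39060756-39061055 (plus), Cyp2c29 at chr19:39286835-39287134 (plus), Gsta1 at chr9:78230419-78230718 (plus) and Cyp1b1 at chr17:79715012-79715311 (minus). The Cyp3a11 stretch holds 1 AGGTCA and the Cyp3a25 stretch 2, while none of the letters searched occur in that of Cyp3a13. TATAAA stands in all 3 Cyp2c stretches, with its first base at -29 from the start in Cyp2c55 and -19 in Cyp2c29, but at -162 in Cyp2c65. Over both strands and all 144 promoter entries of the 126 members with one, AGGTCA was present in 22.9%, against 16.3% of the 32851 promoters in the table. By family it stood in 6 of 10 Cyp3 and 5 of 10 Ugt2 entries, but in 1 of 17 Cyp4 and 1 of 12 Gstm entries. TATAAA was present in 27.8% of member promoters against 13.6% of all, and in 21 of 42 Cyp2 entries. GTTAAT was present in 15.3% against 7.10%, with 4 of 7 Ugt1 entries, whereas GCGTG (18.1% against 32.4%) and TGACNNNGC (6.25% against 12.4%) were present in a smaller share of member promoters than of all promoters. Entries of the same gene overlap, and a match describes letters only.

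The Cyp2 family, with 50 genes the largest, held large differences in both directions. Of its members 21 were tested, 18 of them higher in ENRI, and the libraries of the media did not overlap for 29 of 50 (higher, against 15.1% of all genes) and 4 of 50 (lower, against 33.4%). The highest of them in ENRI was Cyp2d26, with 12.7 and 34.4 RPKM in ENRI against 3.42 and 1.78 RPKM in WENRC. Its log2 difference was 2.84 ± 0.58 (limma adjusted p = 0.0603). Cyp2d34 had 4.36 and 6.19 RPKM in ENRI against 0.298 and 0.109 RPKM in WENRC, so that both ENRI libraries lay far above both WENRC libraries (log2 difference 3.03 ± 0.24, limma adjusted p = 0.0518). All 10 genes of the Cyp2d array on chromosome 15 were above 0, and 9 of 10 did not overlap between media. Cyp2d11 and Cyp2d13, at about 1 RPKM in ENRI, were nearly equal in the 2 ENRI libraries (1.07 and 1.25 RPKM, and 1.10 and 1.17 RPKM) and stood at 0.133 RPKM or less in WENRC. Cyp2d11 overlaps the microRNA gene Mir7684 and is listed with 2 genomic copies in the table.

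Cyp2b10, the usual reporter of CAR activity in mouse liver, had 4.05 and 8.44 RPKM in ENRI against 0.735 and 0.512 RPKM in WENRC (log2 difference 2.51 ± 0.37, limma adjusted p = 0.056). Of the 3 genes tested in its 13-gene array on chromosome 7, limma had Cyp2b10 higher at an unadjusted p under 0.05 (12.0% of all genes tested). At the same level Cyp2t4 was lower (26.9% of all genes tested). Between Cyp2b10 and Cyp2t4 at the far end lie Cyp2a, Cyp2b, Cyp2f and Cyp2g genes, and none of those 10 reached 0.2 RPKM in any library. Cyp2s1, at the near end, had 1.25 and 2.46 RPKM in ENRI against 1.29 and 1.09 RPKM in WENRC, and the media overlapped. In the Cyp2j array of arachidonic acid epoxygenases, Cyp2j6 had 6.15 and 9.22 RPKM in ENRI against 1.63 and 0.957 RPKM in WENRC. Its neighbours Cyp2j9 and Cyp2j11 averaged 3.59 ± 1.19 and 0.919 ± 0.165 RPKM in ENRI, against 0.568 ± 0.292 and 0.0386 ± 0.000959 RPKM in WENRC (SD, n = 2 each).

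The Cyp2c array on chromosome 19 split by gene. Cyp2c55, its first gene, was lower in ENRI, with 1.05 and 1.48 RPKM in ENRI against 3.68 and 2.51 RPKM in WENRC. Both ENRI libraries lay below both WENRC libraries, by a log2 difference of -1.02 ± 0.24 (limma adjusted p = 0.0663). Its next neighbours went the other way. Cyp2c65 had 3.48 and 7.83 RPKM in ENRI against 1.89 and 1.25 RPKM in WENRC, and Cyp2c66 had 1.75 and 3.85 RPKM in ENRI against 0.970 and 0.638 RPKM in WENRC. Farther along, Cyp2c29 averaged 2.32 ± 0.631 RPKM in ENRI and 0.216 ± 0.0339 in WENRC (SD, n = 2 each), 10.7-fold higher. Cyp2c38 stood apart by ratio, at 0.901 and 2.18 RPKM in ENRI against 0.0263 and 0.0412 RPKM in WENRC, or 4459 reads over the ENRI pair against 78 over the WENRC pair. Corrected for depth that is a ratio of 44.7 (95% interval 35.7 to 56.6, exact binomial, counting error only). The array ends in Cyp2c54, Cyp2c50 and Cyp2c70, which were under 0.1 RPKM in all 4 libraries.

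**Figure D2:**
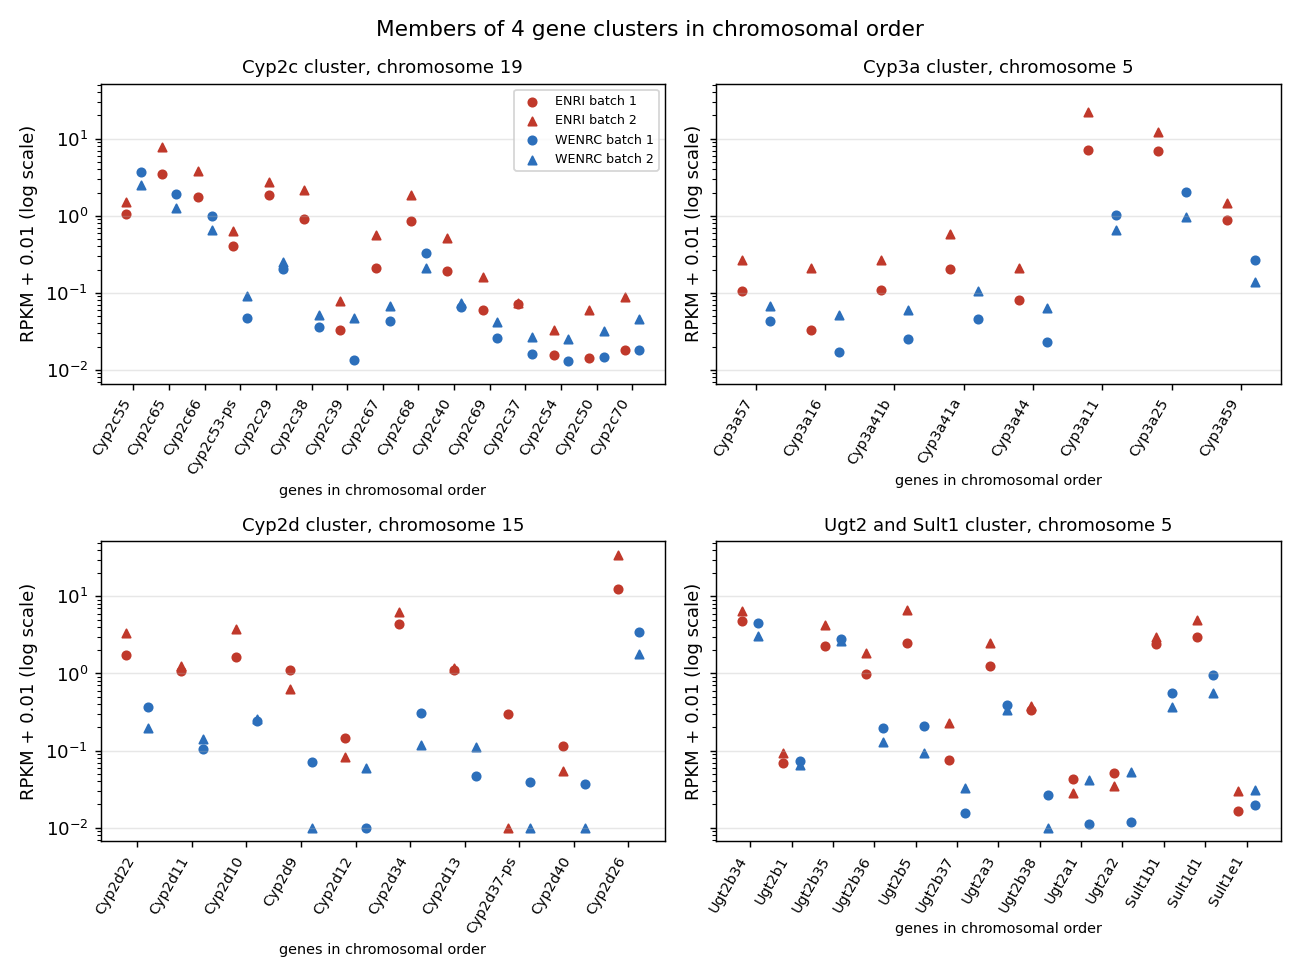
RPKM + 0.01 on a log scale for the genes of 4 arrays in chromosomal order, ENRI (red) left of WENRC (blue), circles for batch 1 and triangles for batch 2. In the Cyp2c panel the first gene, Cyp2c55, has ENRI below WENRC and its next neighbours have ENRI above; in the Cyp3a panel the high genes are Cyp3a11 and Cyp3a25.

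Besides Cyp2c55, the lower P450 genes were few. Cyp2w1, known in humans from fetal and tumour colon, had 0.311 and 0.143 RPKM in ENRI against 1.30 and 1.42 RPKM in WENRC, a log2 difference of -1.36 ± 0.16 (limma adjusted p = 0.056). It was the 1 member that edgeR called lower, against 2.84% of all genes tested, and it passed the filter through the WENRC pair alone. Cyp2t4 had 2.31 and 2.21 RPKM in ENRI against 3.75 and 3.72 RPKM in WENRC, with hardly any spread within a medium and a log2 difference of -0.62 ± 0.15 (limma adjusted p = 0.0666). Cyp1b1, an AhR target that oxidises oestrogens and aromatic hydrocarbons, was under the filter with 9 reads over the ENRI pair and 43 over the WENRC pair, a depth-corrected ratio of 0.163 (95% interval 0.0701 to 0.34). The classic AhR targets of the liver were nearly silent: Cyp1a1 had 0.0583 and 0.132 RPKM in ENRI against 0.0219 and 0.0612 RPKM in WENRC, and Cyp1a2 had 0 reads in the ENRI pair and 1 in the WENRC pair. Cyp2e1, the ethanol-oxidising form of the liver, stayed under 0.1 RPKM in all 4 libraries.

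Cyp4 enzymes hydroxylate the end of fatty acid chains. Of 22 genes 9 were tested, 8 of them higher in ENRI. Cyp4f14, which inactivates leukotriene B4, had 7.40 and 16.4 RPKM in ENRI against 2.41 and 0.864 RPKM in WENRC (log2 difference 2.54 ± 0.55, limma adjusted p = 0.0623). Cyp4b1 had 2.18 and 4.48 RPKM in ENRI against 0.438 and 0.386 RPKM in WENRC. Cyp4v3, whose human counterpart is mutated in a degeneration of cornea and retina, averaged 2.18 ± 0.91 RPKM in ENRI and 0.311 ± 0.00756 in WENRC (SD, n = 2 each). In the Cyp4f array on chromosome 17, Cyp4f16 was 4.60-fold higher and Cyp4f13 1.91-fold higher, while Cyp4f17, with 0.802 and 0.706 RPKM in ENRI against 0.580 and 0.747 RPKM in WENRC, overlapped. Cyp4a10 and Cyp4a14, the PPARα targets of the liver, stayed at or under 0.14 RPKM in every library, whereas Cyp4a32 averaged 1.28 ± 0.236 RPKM in ENRI and 0.196 ± 0.00127 in WENRC (SD, n = 2 each).

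The Ugt1 locus makes 1 enzyme per alternative first exon, each spliced to the same last exons, so its 8 transcripts overlap and their values are not independent. All 8 were higher in ENRI, by a log2 difference of 1.26 to 1.34 with limma adjusted p from 0.109 to 0.121. Ugt1a1, the enzyme that conjugates bilirubin, had 11.0 and 24.0 RPKM in ENRI against 7.80 and 4.79 RPKM in WENRC. Reads between first exons were obtained by subtraction of nested transcripts. The start of Ugt1a6b was passed over, so the stretch from Ugt1a7c runs to Ugt1a6a. Another gene, Dnajb3, lies inside the locus, and whether its reads are counted in a stretch was not tested. From the start of Ugt1a10 to that of Ugt1a9 the locus was almost silent, at 0.0313 and 0.120 RPKM in ENRI against 0.00755 and 0.0422 RPKM in WENRC. From Ugt1a9 to Ugt1a7c it had 0.977 and 2.49 RPKM in ENRI against 0.173 and 0.183 RPKM in WENRC, a 9.75-fold difference of means. Downstream of Ugt1a7c the 4 stretches up to the start of Ugt1a1 were flatter, with means of 5.66 to 7.02 RPKM in ENRI and 1.99 to 2.61 RPKM in WENRC. Those differed by 2.69-fold to 3.15-fold between media, and the last stretch, from Ugt1a1 to the shared end, by 2.78-fold. The step between media was thus larger between Ugt1a9 and Ugt1a7c than in any stretch downstream in each batch, at 5.66-fold in batch 1 against 1.38-fold to 1.51-fold, and 13.6-fold in batch 2 against 4.52-fold to 5.70-fold. These ratios are a description of 4 libraries, with no test.

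**Figure D3:**
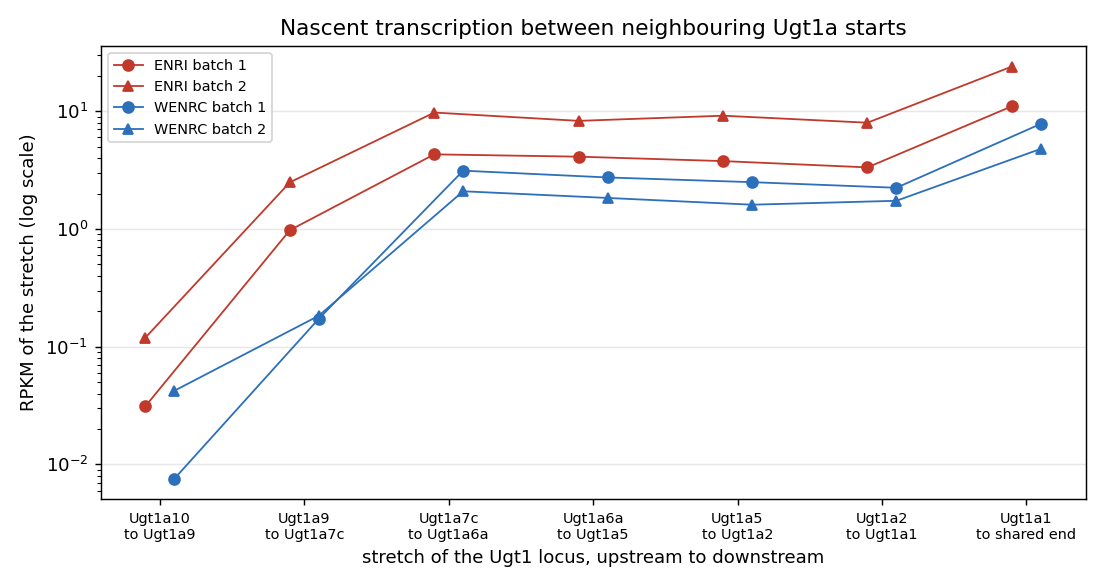
RPKM (log scale) of each stretch between Ugt1a starts, with that of Ugt1a6b passed over, from upstream (left) to downstream (right), in the 4 libraries. The ENRI lines (red) lie above the WENRC lines (blue) throughout except that WENRC batch 2 exceeds ENRI batch 1 in the almost silent first stretch, and the gap is widest between Ugt1a9 and Ugt1a7c.

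The Ugt2b enzymes conjugate steroids, bile acids and drugs and share an array on chromosome 5 with 3 sulfotransferases. Of 10 Ugt2 genes 5 were tested. Ugt2b5 had 2.51 and 6.63 RPKM in ENRI against 0.196 and 0.0843 RPKM in WENRC (log2 difference 2.86 ± 0.45, limma adjusted p = 0.056), or 2739 reads over the ENRI pair against 90 over the WENRC pair. Ugt2b36 averaged 1.41 ± 0.611 RPKM in ENRI and 0.153 ± 0.0493 in WENRC, and Ugt2a3 1.85 ± 0.866 RPKM in ENRI and 0.355 ± 0.0394 in WENRC (SD, n = 2 each). A pair of genes well transcribed in both media differed less. Ugt2b34 had 4.79 and 6.43 RPKM in ENRI against 4.51 and 3.08 RPKM in WENRC, and Ugt2b35 had 2.26 and 4.3 RPKM in ENRI against 2.79 and 2.60 RPKM in WENRC, where the media overlapped. Ugt2b34 and Ugt2b35 were the highest members of the array in WENRC, whereas Ugt2b5 and Ugt2b34 were its 2 highest in ENRI.

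Sulfotransferases, which transfer sulfate from the donor PAPS, divided. In the same array Sult1b1 had 2.38 and 3.01 RPKM in ENRI against 0.556 and 0.352 RPKM in WENRC (log2 difference 1.75 ± 0.18, limma adjusted p = 0.056). Sult1d1, which sulfates catecholamines in mice, had 3.00 and 5.00 RPKM in ENRI against 0.938 and 0.550 RPKM in WENRC. Sult2b1, a cholesterol sulfotransferase, averaged 2.95 ± 1.03 RPKM in ENRI and 1.32 ± 0.0376 in WENRC (SD, n = 2 each). By contrast Sult1a1, the phenol sulfotransferase, had 0.650 and 1.04 RPKM in ENRI against 0.932 and 1.12 RPKM in WENRC, and Sult1c2 had 0.934 and 0.466 RPKM in ENRI against 1.26 and 0.596 RPKM in WENRC. The media overlapped for both. The other 13 sulfotransferases were below the filter. The 7 Sult2a genes on chromosome 7, known for bile acid sulfation in liver, summed to 0.0120 and 0.190 RPKM in ENRI against 0.00897 and 0.147 RPKM in WENRC. Their few reads thus went with batch 2 in both media, as did those of other nearly silent genes such as Cyp2c54, Cyp2c50 and Cyp2c70.

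Most glutathione transferases were transcribed in these organoids. Of 21 genes 18 were tested, of which 16 had a difference above 0, and the median log2 difference was 0.81. Gsta1, an alpha-class enzyme, was the highest of all 156 members in ENRI, with 28.3 and 57.6 RPKM in ENRI against 6.16 and 3.72 RPKM in WENRC (log2 difference 2.95 ± 0.47, limma adjusted p = 0.056). A gene named Gm3776, which lies inside the same array and has no member symbol, had close to the same values, at 25.6 and 55.1 RPKM in ENRI against 5.52 and 3.02 RPKM in WENRC. Whether reads are shared between these neighbours was not tested. Gsta4, which clears the lipid aldehyde 4-hydroxynonenal, had 9.03 and 9.69 RPKM in ENRI against 3.60 and 3.30 RPKM in WENRC and was even within each medium (log2 difference 1.32 ± 0.19, limma adjusted p = 0.056). Gsta3, alone on chromosome 1, was level at 1.26 and 1.33 RPKM in ENRI against 1.25 and 1.31 RPKM in WENRC.

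The mu-class array on chromosome 3 was high mainly in ENRI batch 2. Gstm1 had 8.01 and 31.7 RPKM in ENRI against 3.85 and 2.78 RPKM in WENRC, and Gstm3 had 5.36 and 21.8 RPKM in ENRI against 4.52 and 3.02 RPKM in WENRC. For the 5 genes tested the median log2 difference was 0.29 in batch 1 and 2.62 in batch 2. Limma's adjusted p was 0.103 for Gstm1 and 0.198 for Gstm3. The pi-class gene Gstp1 went the same way, with 8.96 and 18.5 RPKM in ENRI against 5.28 and 5.10 RPKM in WENRC. Gstk1, the kappa-class enzyme of mitochondria and peroxisomes, was the opposite case, at 1.40 and 1.42 RPKM in ENRI against 0.301 and 0.336 RPKM in WENRC (log2 difference 1.22 ± 0.11, limma adjusted p = 0.0556). Gsto1, the highest member in WENRC, had 15.0 and 12.1 RPKM in ENRI against 8.18 and 7.99 RPKM in WENRC, 1.68-fold higher. Gstt2 was lower, with 2.70 and 2.19 RPKM in ENRI against 4.18 and 3.17 RPKM in WENRC, a log2 difference of -0.50 ± 0.21 (limma adjusted p = 0.153). Gstz1, which serves the breakdown of tyrosine more than that of drugs, had 1.61 and 1.50 RPKM in ENRI against 1.69 and 1.47 RPKM in WENRC. It overlaps Pomt2, and whether the counting used strand is not given in the sources used here.

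All 15 carboxylesterases had a difference above 0, and the libraries of the media did not overlap for 11 of them, all higher in ENRI (15.1% of all genes). Ces2 enzymes hydrolyse ester prodrugs in the intestine. Ces2c had 12.7 and 15.9 RPKM in ENRI against 3.26 and 1.37 RPKM in WENRC (log2 difference 2.47 ± 0.40, limma adjusted p = 0.056), and Ces2e had 8.44 and 17.4 RPKM in ENRI against 3.21 and 1.03 RPKM in WENRC. Ces2a, by contrast, had 9.77 and 13.3 RPKM in ENRI against 8.23 and 1.32 RPKM in WENRC, so that its 2 WENRC libraries differed more than its ENRI libraries did (log2 difference 1.58 ± 0.80, limma adjusted p = 0.213). The pseudogene Ces2d-ps, lying in the same array, averaged 6.92 ± 1.52 RPKM in ENRI and 1.18 ± 0.48 in WENRC (SD, n = 2 each). Of the Ces1 genes, several of which hydrolyse triglycerides in liver, Ces1f alone passed the filter. It had 2.56 and 6.17 RPKM in ENRI against 0.168 and 0.253 RPKM in WENRC, 20.7-fold higher (log2 difference 2.67 ± 0.40, limma adjusted p = 0.056). Ces1d, a triglyceride hydrolase, and Ces1g were under the filter but went the same way, with 1048 and 393 reads over the ENRI pair against 88 and 32 over the WENRC pair, for depth-corrected ratios of 9.30 (95% interval 7.48 to 11.7) and 9.59 (6.68 to 14.2).

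**Figure D4:**
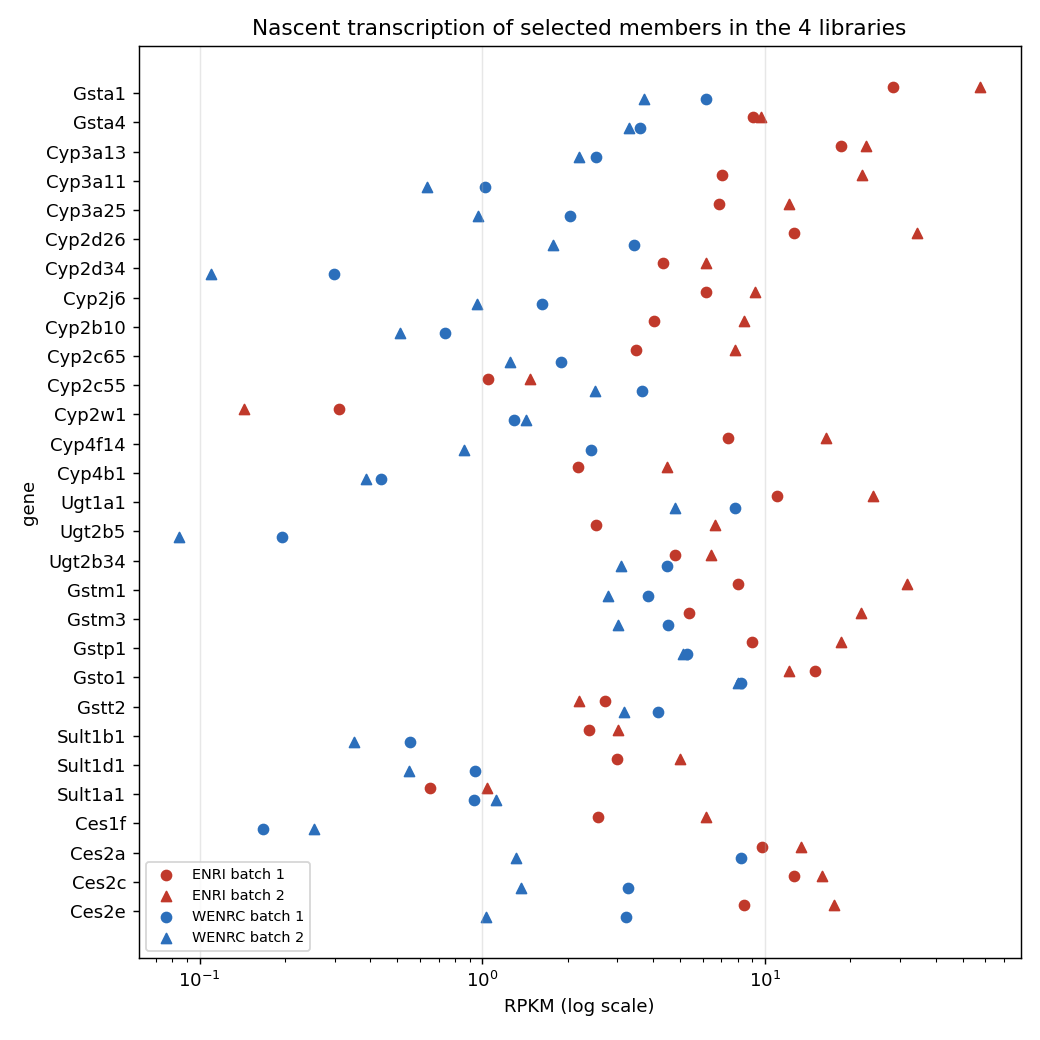
RPKM (log scale) of selected members of each superfamily in the 4 libraries, ENRI (red) drawn above WENRC (blue) in each row, circles for batch 1 and triangles for batch 2. Gsta1 reaches 57.6 RPKM in ENRI batch 2; Cyp2c55, Cyp2w1 and Gstt2 are the rows with both ENRI points left of both WENRC points.

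The 2 batches agreed in direction for most members and differed in size. Of 77 tested, 64 were above 0 and 7 below 0 in both batches. The median log2 difference was 0.84 in batch 1 and 1.94 in batch 2, and it was larger in batch 2 for 68 of 77 members, against 45.1% of all genes tested. ENRI batch 2 exceeded ENRI batch 1 for 66 of 77 members (42.3% of all genes tested), and WENRC batch 1 exceeded WENRC batch 2 for 61 of 77 (56.6%). The summed enterocyte markers ran in the same order, highest in ENRI batch 2 and lowest in WENRC batch 2. Gstk1, Cyp3a13 and Gsta4 differed about equally in both batches, whereas the Ugt1 transcripts had a median of 0.49 in batch 1 and 2.07 in batch 2. The column headers carry a different number code for each batch and do not say what it stands for, and the part of the batch in the result was not tested.

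**Figure D5:**
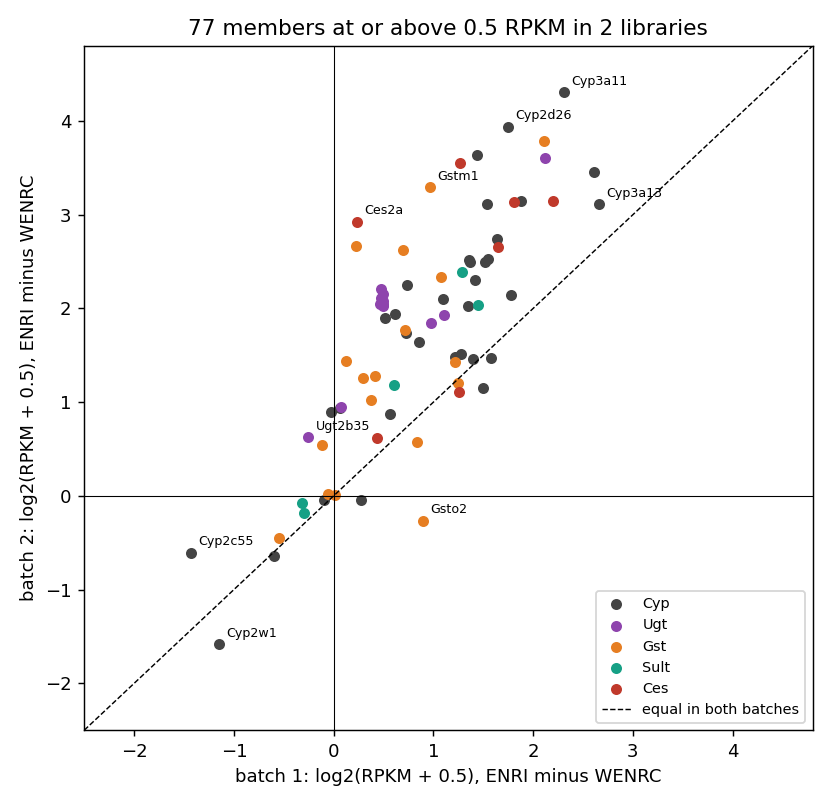
Difference in log2(RPKM + 0.5), ENRI minus WENRC, in batch 2 (vertical axis) against batch 1 (horizontal axis) for the 77 members tested, coloured by superfamily, with a dashed line where both are equal. Of these points 68 lie above the line, and Cyp2w1, Cyp2c55 and Gsto2 are among those on or below 0 in at least 1 batch.

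Other genes in or next to the arrays were split between both directions. Inside or within 100 kb of the 19 arrays of at least 2 members lay 121 other genes, 18 of them inside. Of the 121, 74 were tested, Gm3776 of the Gsta array among them. Of these 74, 32 were higher in ENRI, against 3983 of all 11602 genes tested. Their median log2 difference was -0.06, against -0.21 over all genes tested. The media did not overlap for 23 (higher) and 24 (lower) of the 74. Over all genes, with those below the filter counted too, the shares were 15.1% and 33.4%. The 19 arrays themselves held 138 of the 156 members.

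Genes that supply or control the enzymes, listed together with other drug-metabolising enzymes outside the symbol rule, were more mixed. Of 61 listed, 59 were in the table and 54 were tested. A difference above 0 was seen in 40 of the 54, and the median log2 difference was 0.78. The other enzymes made up 20 of those 54 and 16 of those 40, with a median of 1.22. The libraries of the media did not overlap for 37 (higher, against 15.1% of all genes) and 13 (lower, against 33.4%) of 59. Limma called 0, with 25 higher and 5 lower at an unadjusted p under 0.05 (12.0% and 26.9% of all genes tested), while edgeR called 15 higher and 0 lower (5.60% and 2.84%). The 4 electron suppliers in the table were all higher, among them P450 oxidoreductase, Por, with 3.86 and 6.12 RPKM in ENRI against 2.68 and 2.10 RPKM in WENRC. Papss2, which makes the sulfate donor PAPS, had 11.8 and 24.6 RPKM in ENRI against 1.24 and 0.846 RPKM in WENRC, while Slc35b2, which carries PAPS into the Golgi, was lower with 7.87 and 3.78 RPKM in ENRI against 16.3 and 19.1 RPKM in WENRC. Ugdh, which makes UDP-glucuronic acid, averaged 6.58 ± 3.08 RPKM in ENRI and 2.81 ± 0.106 in WENRC (SD, n = 2 each). The 4 glutathione supply genes had a median log2 difference of 0.10, with Gclc and Gclm higher and Gsr and Gss lower.

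Among the regulators the median log2 difference was 0.06. The receptor genes for foreign compounds were transcribed in both media, CAR (Nr1i3) at 4.70 and 8.93 RPKM in ENRI against 3.37 and 2.60 RPKM in WENRC and PXR (Nr1i2) at 3.02 and 4.84 RPKM in ENRI against 2.36 and 2.03 RPKM in WENRC. Ppara, the receptor for fatty acids, had 1.49 and 3.47 RPKM in ENRI against 0.435 and 0.316 RPKM in WENRC, and Hnf4g had 3.10 and 3.90 RPKM in ENRI against 1.28 and 0.995 RPKM in WENRC. Ahr had 1.19 and 0.852 RPKM in ENRI against 0.972 and 1.01 RPKM in WENRC, and overlapped between media. Hnf4a averaged 8.66 ± 0.747 RPKM in ENRI and 9.94 ± 0.231 in WENRC, and Cdx2 5.49 ± 0.748 RPKM in ENRI and 7.89 ± 0.528 in WENRC (SD, n = 2 each). Among enzymes of drug metabolism outside the symbol rule, the alcohol dehydrogenase Adh1 had 19.5 and 63.1 RPKM in ENRI against 3.19 and 2.31 RPKM in WENRC, and the flavin monooxygenase Fmo5 had 11.4 and 25.6 RPKM in ENRI against 1.41 and 0.727 RPKM in WENRC.

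H3K27me3 was rare at the starts of these genes. A broad region lay within 2 kb of the start of 2 of 156 members in ENRI (1.28%, 95% interval 0.156 to 4.55, exact Clopper-Pearson), against 8.76% of all genes, and of 2 of 156 members in WENRC (1.28%, same interval), against 10.5% of all genes. Cyp1b1 was marked in both media. Its region lay at chr17:80111451-80117984 in ENRI, 4.14-fold over input, and at chr17:80111139-80114843 in WENRC, 7.14-fold over input (build mm9, fold and position as the authors' lists give them). It covered the start in both. Cyp2d12 was marked in ENRI alone, at chr15:82386621-82387621 and 1093 bp from its start, with 22 reads over the ENRI GRO-seq pair and 2 over the WENRC pair. Sult4a1, a sulfotransferase known from brain, was marked in WENRC alone in the broad lists, at chr15:83936428-83937917, but a narrow peak covered its start in ENRI too. With 1 library per medium there is no test of these differences. The 3 marked genes were all below the filter on transcription in both media.

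By the authors' narrower peaks, 8 members were marked in ENRI (5.13%, against 19.6% of all genes) and 10 in WENRC (6.41%, against 17.8%). The marked sets shared Cyp1b1, Cyp4f39, Sult4a1 and Sult5a1. Of the members tested for transcription, 4 were marked, each in 1 medium: Cyp2j11 and Sult1a1 in ENRI, where the peak covered the start, and Cyp2d13 and Cyp2d22 in WENRC. By nascent transcription Cyp2j11 was 23.8-fold, Cyp2d13 16.4-fold and Cyp2d22 9.37-fold higher in ENRI. Of the members with large differences described above, Cyp3a11, Cyp3a13, Cyp2d34, Cyp2d26, Gsta1, Ugt2b5 and Ces1f had no broad region at the start in either medium. Elsewhere a broad region lay inside Ces1a and inside Cyp2j12 in ENRI, both of which were under 0.1 RPKM in all 4 libraries.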

How the data were processed

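Duodenal organoids of 2 media were profiled by GRO-seq, with 2 libraries each (cultures of mouse 1 and mouse 2 by their titles), and by H3K27me3 ChIP-seq, with 1 library each. Per the file headers, the authors counted GRO-seq reads over RefSeq gene bodies of build mm9 with HOMER and compared media with edgeR, with batch as a term. The submitters' processing notes name FastQC, Bowtie, Bowtie2, edgeR and HOMER 4.3. The deposited signal columns each summed to 20.0M scaled reads, and 100% of low values were whole multiples of 1 step per library (tolerance 0.1), so whole read counts were recovered. The deposited log2 fold changes, p-values and FDR are the authors' own, as are the score and the fold (ratio to input) of the deposited peak lists, which were called per library against input. Another 4 columns, RPKM values of the authors, went unused, and 1 transcript, the longest, stood for each symbol. Gene levels depend on gene-body counting, since polymerase near the start and along introns is counted alike.

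RPKM was computed from the scaled reads, and log2(RPKM + 0.5) was tested with limma 3.58.1 (R 4.3.3, mean trend, no block) where a gene reached 0.5 RPKM in 2 or more libraries, and p was adjusted by Benjamini-Hochberg with a threshold of 0.05. Fold differences on this scale understate low genes. edgeR 4.0.16 and DESeq2 1.42.0 were run on the recovered reads. Over the 11602 genes, simulated 4-fold differences served to test the scripts. Columns carry a batch number but could not be tied to a mouse, so batch was taken as the pairing, and deviations of same-batch libraries from their group means correlated at 0.0126. The p-values measure the spread between these libraries. Intervals on reads and shares cover counting error only.

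Clusters joined members at most 500 kb apart. The choice of these families as members, the gene lists and the tests were made with earlier results of these data known. The naming rule took up to 4 members per family by level and 3 by difference, those with a marked promoter and a fixed set. Other members named with values, and Gm3776, lie outside it and were picked once their values were known, among them Cyp2c29, Cyp2c38, Cyp2d11, Cyp2d13, Cyp2j9, Cyp2j11, Cyp2w1, Cyp2t4, Cyp4f17, Cyp4a32, Ces1a, Cyp2j12, Cyp2d22 and most of the silent genes, but not Cyp1a1, Cyp1a2, Cyp2e1 or Cyp2d12, which it holds.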

Additional observations from a re-analysis of the deposited data

How the results depend on the processing

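The direction of the members was steadier than the calls. Of the 77 members tested by limma, 69 were above 0. Under the other pseudocounts, scalings and tests with that filter or one on the mean, 67 to 72 were. Without members that overlap another gene, a smaller set, 59 were above 0 and the median log2 difference was 1.40. Above 0 were 133 of 156 with no filter and 111 with a filter of 10 reads, which keeps a larger set. The median log2 difference of 1.32 was 0.43 with no filter, 0.777 with a filter of 10 reads, 1.81 with a pseudocount of 0.1, 2.40 and 2.43 by edgeR with TMM and RLE scaling, 2.25 by edgeR with the replicate block, 2.44 by DESeq2 and 2.34 by DESeq2 with the block, and 0.96 to 1.80 with 1 library left out. Median centring gave 1.47. Calls of members, 0 higher and 0 lower by limma, were 32 and 1 with quantile normalization (507 and 422 of all 11602 genes tested). With a filter of 10 reads they were 38 and 2, against 544 and 947 over all genes that passed that filter, a number not given here. By edgeR they were 37 and 1 with TMM (5.60% and 2.84% of all genes tested). With RLE they were 36 and 1 (587 and 285 of all 11602 genes), and with the replicate block 36 and 1 (617 and 315). By DESeq2 they were 59 and 2 (14.7% and 8.89%), and 57 and 1 with the block (1124 and 540 of all 11602 genes). Counts over all genes under these settings follow below, out of 11602 genes tested except where the filter differs. With 1 library left out they were 0 to 61 higher and 0 to 2 lower, on the assumption that a medium with a single library varies as much as the other medium.

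Limma with the replicate block kept members at 0 calls. Over all genes, limma's 7 higher and 10 lower became 1 and 0 with a pseudocount of 0.1, 0 and 0 with no filter or with the replicate block, 544 and 947 with 10 reads, and 507 and 422 with quantile normalization. Median centring left 5 lower. They were 650 and 329 by edgeR with TMM, 587 and 285 with RLE, 617 and 315 with the block, 1707 and 1031 by DESeq2, 1124 and 540 by DESeq2 with the block, and 0 to 1809 and 0 to 3985 with 1 library left out. The cause was not tested.

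Single members that changed sign lay between -0.24 (Sult1c2) and 0.31 (Gsto2) in the main fit. Gstz1 went to 0.13 with median centring, 0.11 with quantile normalization, 0.21, 0.25 and 0.22 by edgeR (TMM, RLE, block), 0.24 and 0.25 by DESeq2 (no block, block), and lay between -0.0976 and 0.0568 with 1 library left out. Cyp4f41-ps went to 0.0752, 0.22, 0.10, 0.14, 0.10, 0.13 and 0.13 under the same 7 settings in that order. Sult1a1 went to 0.00245 by edgeR with RLE, 0.0036 by DESeq2, with -0.40 to 0.013 over the libraries left out, and Sult1c2 to 0.0267 with quantile normalization, with -0.58 to 0.10 over the libraries left out. With 1 library left out, Gsta3 ranged from -0.0108 to 0.0399, Gsto2 from -0.11 (without ENRI batch 1) to 0.74 and Ugt2b35 from -0.21 (without ENRI batch 2) to 0.59. By edgeR and DESeq2, Gsto2 lay at 0.72 to 0.83 and Ugt2b35 at 0.45 to 0.58. The narrow peak lists moved the share of marked members to 5.13% in ENRI and 6.41% in WENRC. The comparison without near-identical copies was not run. Depth limits the 42 members under 0.1 RPKM in all libraries, where only large ratios stand clear of counting error.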

Other observations

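The order of the batches was less even over all members than over those tested. Over all 156 members, WENRC batch 1 exceeded WENRC batch 2 in 77, against 61 of the 77 that were tested. The 7 Sult2a genes together had more signal in batch 2 of both media, as did other nearly silent genes such as Cyp2c54, Cyp2c50 and Cyp2c70. Some pseudogenes inside active arrays had reads as well, though Cyp2d37-ps of the Cyp2d array had only 11 over the ENRI pair and 1 over the WENRC pair. Whether such reads came from near-identical genes was not tested. Cyp2c53-ps had 0.399 and 0.620 RPKM in ENRI against 0.0374 and 0.0809 RPKM in WENRC, and Cyp4b1-ps2 had 33 reads over the ENRI pair against 1 over the WENRC pair, a depth-corrected ratio of 25.8 (95% interval 4.32 to 1049). Ugt2b38, a member below the filter, had 218 reads over the ENRI pair against 6 over the WENRC pair, a ratio of 28.4 (12.8 to 78.2). These members were chosen after their values were seen.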
